A study of Danio rerio with 15 samples.

Results

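The abundant short transcripts of the zebrafish embryo are the 400 transcripts, of 46488 quantified, that are annotated with at most 300 bases and had a mean of at least 100 TPM over 14 libraries. TPM is the number of reads of a transcript over its effective length, scaled so that every library sums to 1000000. The transcripts were chosen by their length and by this mean, so their level and their share of all TPM are given as a description, without a test. The dose comparisons below were not used to choose them, but the mean runs over all doses. A member near 100 TPM can therefore owe its place to the doses where it is high. The short set of at most 300 bases held 2609 transcripts in all, of which 642 had no counts in any of the 14 libraries. A further 515 transcripts reached the same mean TPM and were longer than 300 bases.

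The libraries come from whole embryos of the AB wild type strain, at the protruding mouth stage and labelled 120 h post-fertilization. Embryos were kept for 120 h in water with dibutyl phthalate (DBP), a plasticiser, at 0, 5, 10, 50 or 100 μg/l, made up from a solvent-free stock of 5.4 mg/l. Each library is a pool of 10 embryos, and 3 libraries were sequenced for each dose. The methods name replicate beakers without tying each pool to a beaker. All groups share the strain, the fish water and the duration, and differ in the labels only by dose. One control, 0B, was left out of the 14, and 2 controls, 0D and 0E, remained. In 0B the TPM of 153 of the 400 transcripts lay outside the range of the other libraries, and the dose trend is given without it and with it. The deposited labels mark 0D as the outlier in place of 0B. The treatment text names 30 where the sample labels have 50 μg/l, and the sample labels were followed. In pooled whole embryos, fewer cells of a type and less RNA per cell cannot be told apart.

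A sequencing library is made of fragments, and a fragment can start only where the rest of it still fits on the transcript. The quantification tool therefore divides reads by an effective length instead of the annotated length. This is the stretch where a fragment of typical size could start. For a transcript shorter than most fragments this stretch shrinks to a few bases, and a small number of reads becomes a large TPM. The libraries were sequenced with single reads, which do not show the size of a fragment. For 295 members the effective length was the same in all 14 libraries. The fragment size behind the effective lengths was not tested, and the TPM rest on these lengths as deposited. Short coding sequences of vertebrates include complete small proteins, such as many subunits of the ribosome and of the respiratory chain, and also incomplete gene models. The deposited tables identify the transcripts by Ensembl transcript number and do not pair these numbers with gene names, so the members are described by number, length and level.

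Of the 400 members, 352 (88.0%) had an annotated length divisible by 3, against 92.467% of all transcripts. Since most lengths are multiples of 3, the annotated length is called coding length here. The annotation itself was not checked for untranslated regions. The members ran from 69 to 300 bases, with a median of 216, and 2 of them were shorter than the 75-base reads. The shortest, ENSDART00000137673.2, had 69 bases, an effective length of 2.0 bases and a mean of 348 TPM from 54.6 counts per library. The longest, ENSDART00000180007.1, had 300 bases, an effective length of 58.2 bases and a mean of 940 TPM from 4200 counts.

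Effective lengths were far below coding lengths throughout the set. The median effective length was 11.0 bases, and 182 members lay under 10, 132 between 10 and 25, and 86 at 25 or more. These are means over the 14 libraries, and the largest mean was 72.0 bases. Single libraries could lie higher, as with 112.6 bases in 0D for ENSDART00000180097.1. The 515 longer transcripts of the same TPM had a median effective length of 317 bases, beside a median coding length of 534. Members had a median of 300 counts per library, and the longer transcripts had a median of 8813.

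The level of a member therefore depended on which length divided its reads. With reads divided by the coding length and rescaled to 1000000, a calculation added after the files had been seen, only 135 of the 400 members (33.75%) kept a mean of at least 100. Among the 10 highest transcripts by deposited TPM, 8 were members, and among the highest 100 there were 56. Among the highest 100 by TPM on coding length there were 7, and among the highest 100 by estimated counts there were 0.

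**Figure D1:**
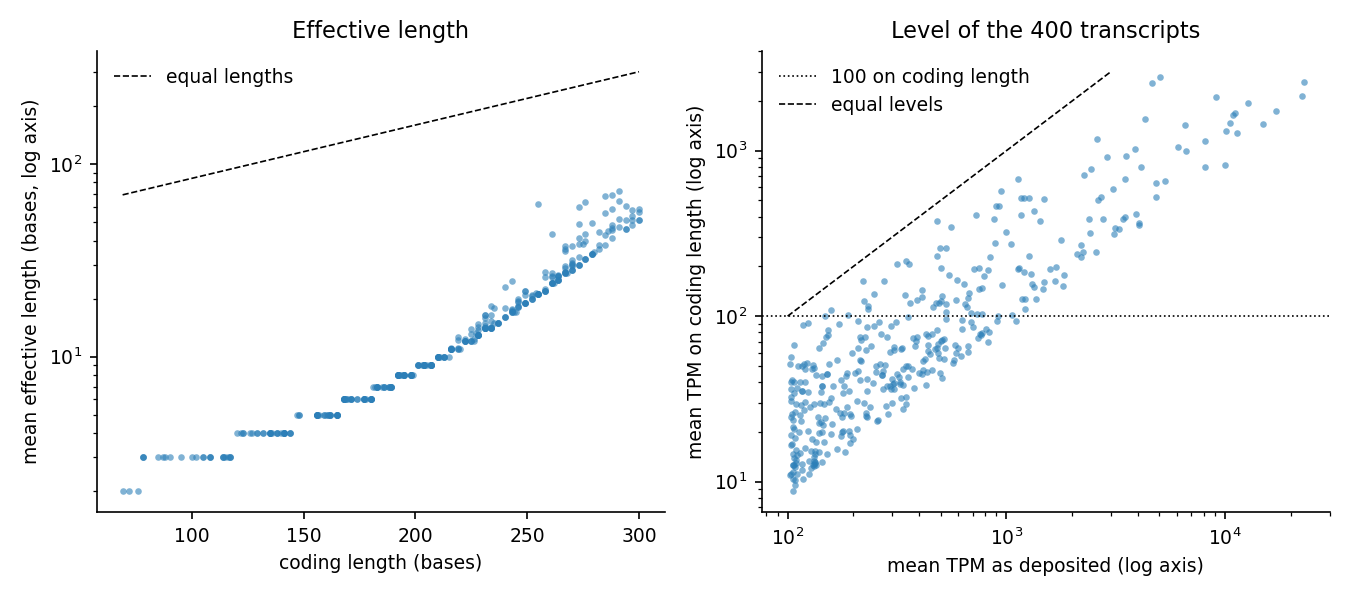
Left, mean effective length over 14 libraries (bases, log axis) against coding length (bases), 1 point per member. Right, mean TPM on coding length against mean TPM as deposited (both log axes). The 400 points lie well below the dashed lines of equality in both panels, and 135 reach the dotted line at 100.

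The members held 44.8% of all TPM on average (SD 0.86, n = 14 libraries), with a lowest value of 43.6% in 10C and a highest of 46.4% in 5E. The same transcripts held 1.81% ± 0.071 of the estimated counts (SD, n = 14), between 1.67% and 1.97%. On coding length their share was 7.77% ± 0.23 (SD, n = 14). The 515 longer abundant transcripts held 37.2% of TPM and 47.3% of counts.

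Along the dose-gradient the share of TPM stayed within a few points. The controls had 45.6% and 44.9%. The libraries at 5 μg/l had 45.9%, 45.4% and 46.4%, those at 10 μg/l had 44.0%, 44.0% and 43.6%, those at 50 μg/l had 44.3%, 44.6% and 44.0%, and those at 100 μg/l had 45.5%, 44.2% and 44.3%. In deposited TPM all libraries at 10 and 50 μg/l lay below both controls, whereas 1 library at 100 μg/l, 100A, lay between them. By counts 10A (1.83%) and 50A (1.81%) lay between the controls (1.85% and 1.80%) and 50B (1.88%) above them. Only 10B, 10C and 50D lay below. On coding length 50B (7.84%) lay between the controls (7.98% and 7.77%), and the others at 10 and 50 μg/l lay below. The share of counts at 100 μg/l (1.87% ± 0.094, SD, n = 3) overlapped that of the controls (1.82% ± 0.039, SD, n = 2). The library 0B, left out, had 42.5% of TPM and 2.01% of counts, the first below and the second above all 14. For 315 members the effective length was larger in 0B than in any of the 14, so reads were divided by unlike lengths. For ENSDART00000148062.2 it was 7.0 bases in 0B and 6.0 in the 14. The part of this in the lower TPM share of 0B was not tested.

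**Figure D2:**
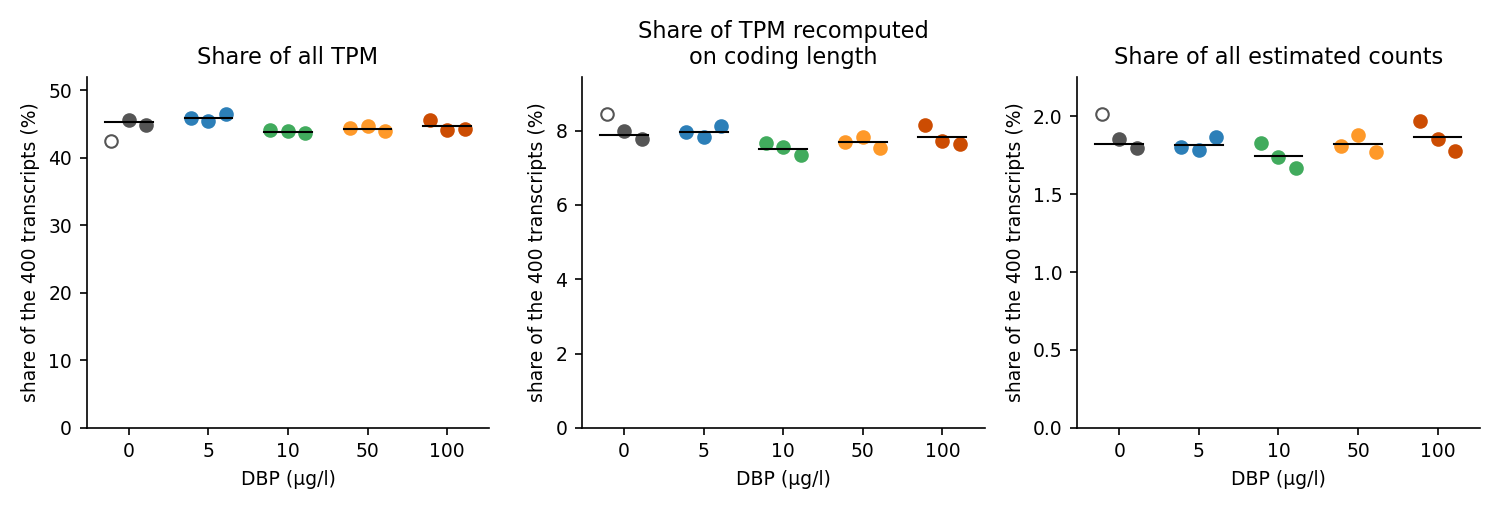
Share of the 400 members (%) in each library by dose (μg/l): of deposited TPM, of TPM recomputed on coding length, and of estimated counts. Filled points are the 14 libraries, black lines their dose means, and the open point is control 0B. The TPM share runs from 43.6% to 46.4% and the count share from 1.67% to 1.97%.

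The share was concentrated in middle lengths. The 100 members of 151 to 200 bases held 15.8% of all TPM and the 132 members of 201 to 250 bases held 14.6%. The 59 members of up to 150 bases held 7.53% and the 109 members over 250 bases held 6.80%. By counts the order was that of length, with 0.0928%, 0.322%, 0.597% and 0.801% of the reads in the classes from short to long. The median effective length in these classes was 4.0, 6.0, 13.0 and 31.6 bases. The part of all transcripts that reached 100 TPM also differed by length, with 19.8% of those of 201 to 250 bases, against 5.55% of those of 301 to 400 bases and 0.561% of those of 1001 to 2000 bases.

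In level the members spread over more than 2 orders of magnitude. Of the 400, 11 had a mean of at least 10000 TPM, 69 lay between 1000 and 10000, and 320 between 100 and 1000. The median was 308 TPM. At the lower edge, ENSDART00000103273.4 (103.2 TPM), ENSDART00000102482.6 (103.03 TPM) and ENSDART00000137872.2 (102.03 TPM) were just inside. ENSDART00000158418.2 (99.8 TPM), ENSDART00000135568.3 (99.7 TPM) and ENSDART00000167061.2 (99.3 TPM) were just outside.

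The 10 most abundant members were 135 to 211 bases long and together held between 13.3% and 15.4% of all TPM in each library. The highest was ENSDART00000148062.2, of 168 bases, with a mean of 22894 TPM from 10702 counts over an effective length of 6.0 bases. It had 24727 and 24151 TPM in the controls, then 25456, 25559 and 23803 TPM at 5 μg/l. It had 23238, 23137 and 19675 TPM at 10 μg/l, then 22320, 22661 and 22416 TPM at 50 μg/l, and 22600, 21297 and 19482 TPM at 100 μg/l. All 3 libraries at 100 μg/l lay below both controls in TPM, but a quadratic trend fitted to its counts over the 5 doses gave an adjusted p of 0.786 (edgeR quasi-likelihood test).

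The next, ENSDART00000104475.3, had 135 bases, an effective length of 4.0 and a mean of 22434 TPM. It had 24815 and 25817 TPM in the controls and 25372, 25091 and 28225 TPM at 5 μg/l. At 10 μg/l it had 17895, 17359 and 21746 TPM, at 50 μg/l 19574, 20188 and 19438 TPM, and at 100 μg/l 21560, 20562 and 26437 TPM. The libraries at 10 and 50 μg/l all lay below the controls, and 100E lay above them. Its dose trend had an adjusted p of 0.217 (edgeR).

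The other 8 were ENSDART00000052761.5 (17040 TPM), ENSDART00000093611.3 (14938 TPM), ENSDART00000148276.3 (12746 TPM), ENSDART00000060444.6 (11355 TPM), ENSDART00000133109.4 (11114 TPM), ENSDART00000170632.2 (10859 TPM), ENSDART00000149945.2 (10521 TPM) and ENSDART00000173029.2 (10086 TPM). ENSDART00000149945.2 varied least of the 10, with a coefficient of variation of 5.01% over 14 libraries. ENSDART00000170632.2 varied most, with 23.4%, between 6302 TPM in 100E and 15520 TPM in 10B. On counts, no member of these 10 passed the test for a dose trend, with adjusted p between 0.0641 and 0.864 (edgeR). The smallest value belonged to ENSDART00000060444.6, which was called as higher with limma on log2(TPM + 1) (adjusted p = 0.0225) and with DESeq2 (adjusted p = 0.0009). It had 12709 ± 1452 TPM at 100 μg/l (SD, n = 3) and 9148 ± 962 TPM in the controls (SD, n = 2).

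**Figure D3:**
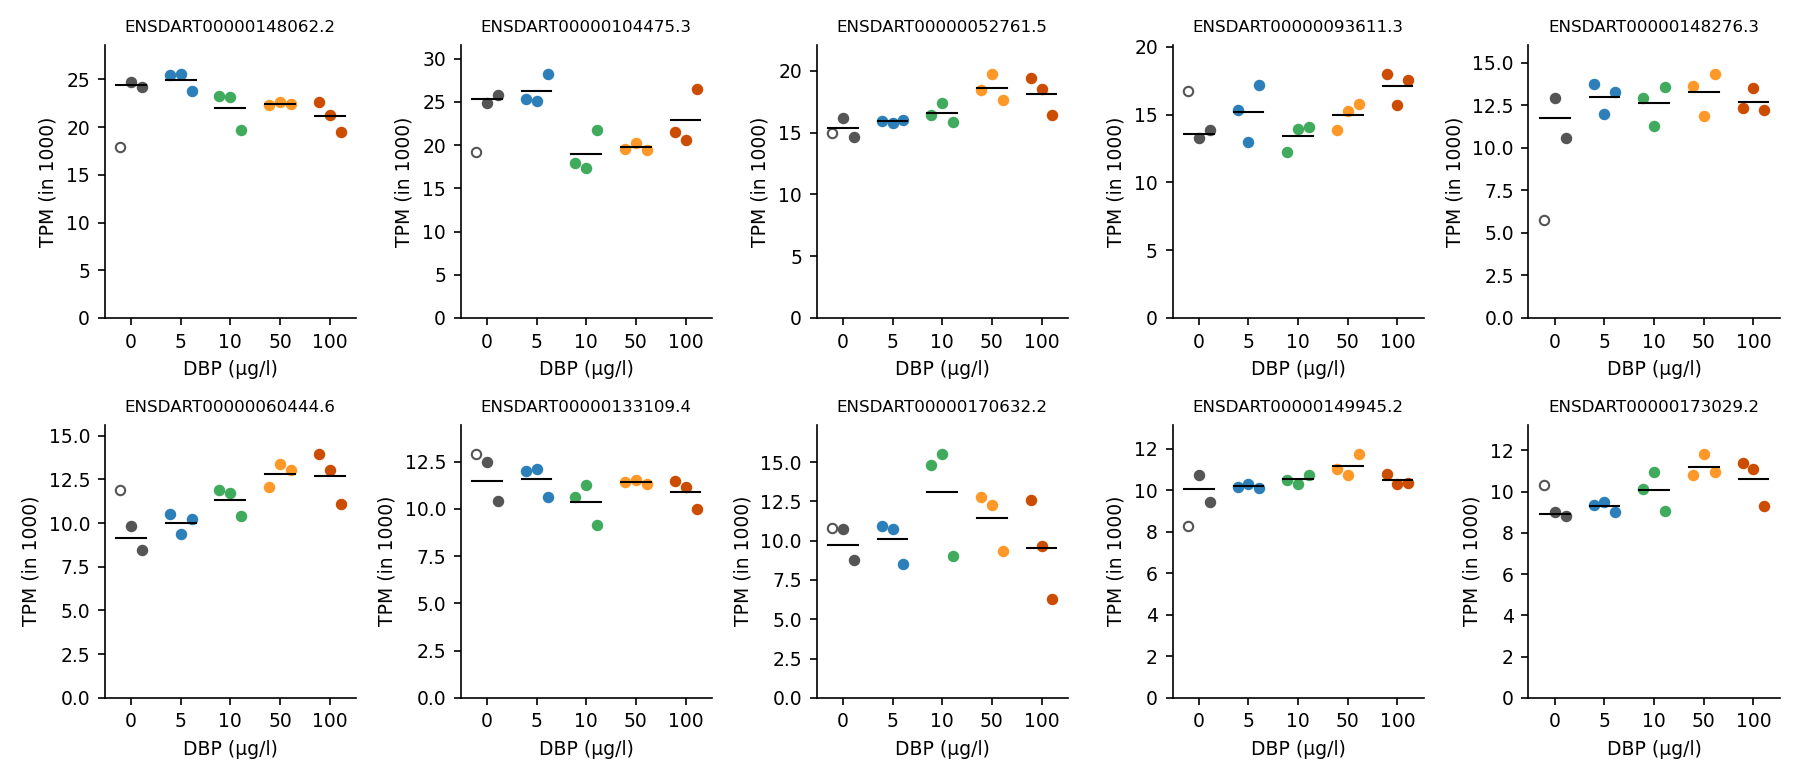
TPM (in 1000) of the 10 most abundant members in each library by dose (μg/l). Filled points are the 14 libraries, black lines their dose means, and the open point is control 0B. ENSDART00000170632.2 spans 6302 to 15520 TPM over the 14. 0B lies below all 14 for ENSDART00000148276.3 (5753 TPM), ENSDART00000148062.2 (17924 TPM) and ENSDART00000149945.2 (8264 TPM). It lies above all 14 for ENSDART00000133109.4 (12904 TPM).

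The spread between pools was read from the coefficient of variation of counts scaled for depth, over the 14 libraries. Its median over the members was 15.0%, with quartiles of 10.6% and 21.8%. Within doses the median was 12.9%, and counting error alone would give 5.77%. The 515 longer abundant transcripts had a median of 12.1% on far higher counts. Over the 26074 longer transcripts in the same range of mean counts as the members, the median was 22.3%.

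This order held within classes of counts. The 65 members with fewer than 100 counts had a median of 20.4%, against 36.0% for longer transcripts of that class. The 250 members with 100 to 1000 counts had 14.4%, against 18.9%, and the 85 members with at least 1000 counts had 11.0%, against 13.5%. These medians are descriptions, since members and longer transcripts also differ in TPM, by which the members were chosen.

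Reads were shared out between similar transcripts for many members. Counts as deposited were exactly whole, with no tolerance, in all 14 libraries for 173 members, and carried fractions in at least 1 library for 227, where the tool divided reads between transcripts. The median coefficient of variation was 16.7% in the 227 and 12.9% in the 173, with median counts of 257.8 and 387.9. Of the 9 members above 50%, 7 carried fractions.

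The steadiest members in TPM were ENSDART00000126741.4 (3.60%, between 2075 and 2336 TPM), ENSDART00000165249.2 (3.82%, between 4445 and 5115 TPM) and ENSDART00000056319.4 (4.20%, between 2465 and 2867 TPM). All had whole counts. The most variable were ENSDART00000132742.3 (84.2%), ENSDART00000145330.2 (82.1%) and ENSDART00000151675.3 (76.0%), and all carried fractions.

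ENSDART00000132742.3, of 255 bases, had 1121 and 1900 TPM in the controls and 683, 618 and 1926 TPM at 5 μg/l. It had 191, 174 and 1323 TPM at 10 μg/l, 115, 138 and 504 TPM at 50 μg/l, and 172, 552 and 1022 TPM at 100 μg/l. In each exposed dose 1 library, namely 5E, 10C, 50D or 100E, stood above the others. The fitted change at 100 over 0 μg/l was -1.87 on the log2 scale, with an adjusted p of 0.258 (edgeR).

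ENSDART00000145330.2, of 258 bases, took nearly the same course, with 118 TPM at its lowest in 50A and 1796 TPM at its highest in 0E. Both transcripts carried fractional counts in these libraries, and the 2 counts of a library added up to a whole number, up to rounding. In 5B they were 868.16 and 897.84, and in 10A 290.99 and 263.01. Reads may thus have been divided between these 2. Their separate levels are uncertain, and their courses are not separate observations. How the reads were divided was not tested.

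The same order of libraries ran through many members. The first principal component of the scaled log counts of the 400 members took up 59.51% of their variance. Its scores were 5.34 in 10A, 6.83 in 10B, 5.24 in 50A, 5.10 in 50B and 4.88 in 100A. They were 0.50 in 50D and 0.94 in 100C. The other 7 libraries lay between -1.80 and -6.55, and these included 10C (-3.83) and 100E (-4.16). The controls and the libraries at 5 μg/l were all on the negative side, whereas the libraries at 10 and at 100 μg/l lay on both sides.

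Levels followed this component in both directions, with a Pearson r above 0.8 for 46 members and below -0.8 for 51. The component was built from these same members, so high values of r are partly built in and serve as a description. The largest r was that of ENSDART00000082066.4 (0.970), picked after the values had been seen, with 43.3, 39.7 and 22.9 CPM in 10A, 10B and 10C. CPM is the count per 1000000 counts after scaling for depth. The lowest was that of ENSDART00000143836.3 (-0.983), with 9.00, 6.74 and 24.5 CPM in the same libraries. The controls 0D and 0E had 25.3 and 19.4 CPM of the first and 29.8 and 32.3 CPM of the second. For the first, 10C thus lay between the controls, while 10A and 10B lay above them.

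The component was not particular to short transcripts, since that of the 28520 longer transcripts gave nearly the same scores (r = 0.991 over 14 libraries). It also ran against the total counts (r = -0.771). These correlations are descriptions over the same 14 libraries, and the part of depth in the pattern was not tested. The members' second component took up 12.5% and put all libraries at 100 μg/l above both controls. It also put 10C (0.20), 50B (1.44) and 50D (2.75) above 0D (-1.39) and 0E (-0.74). This too was not particular to short transcripts. On the second component of the longer transcripts, 100A, 100C and 100E had 39.4, 48.4 and 58.5, against -23.0 in 0D and -2.64 in 0E.

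**Figure D4:**
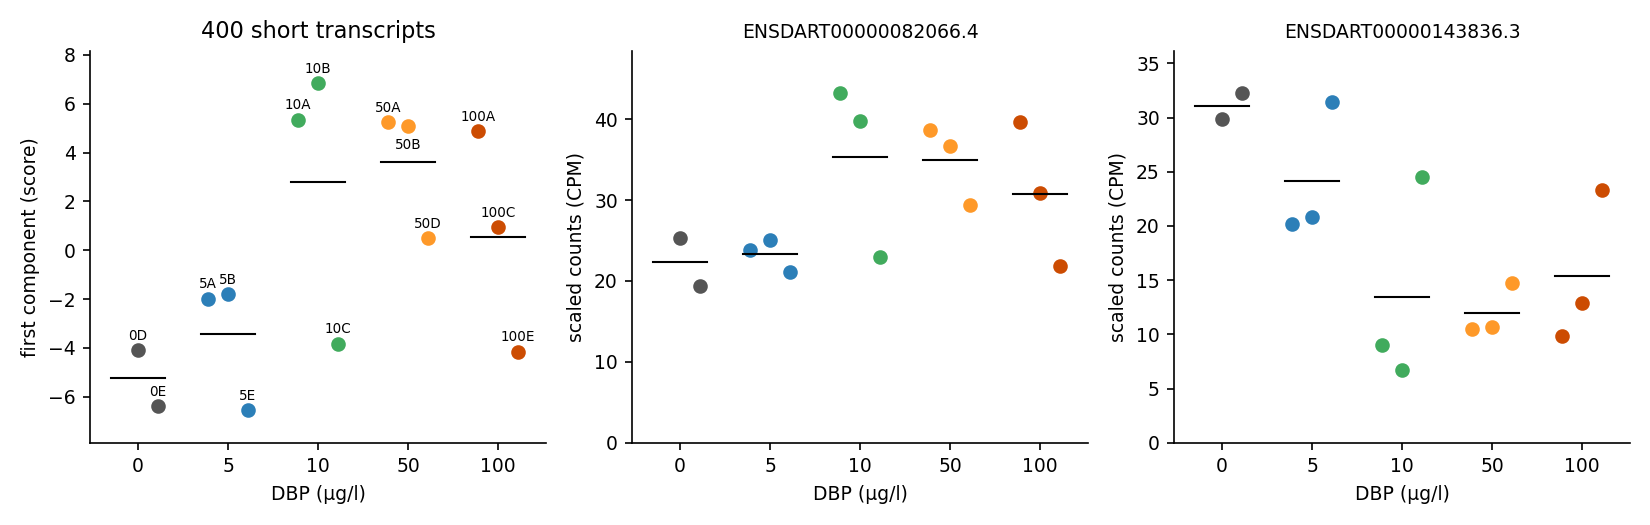
Left, score of each library on the first component of the 400 members, by dose (μg/l) and with library names. Middle and right, counts scaled for depth (CPM) of the members with the highest and the lowest correlation with it. Points are libraries, black lines dose means. Libraries at 10 μg/l lie at 6.83 and 5.34 and at -3.83.

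The dose-gradient was tested on the estimated counts of 32350 transcripts with enough counts, among them all 400 members. A quadratic trend on dose ranks was fitted with edgeR's quasi-likelihood test. A transcript was called with a Benjamini-Hochberg adjusted p under 0.05 over all transcripts tested, and its direction was the fitted value at 100 minus that at 0 μg/l. Of all transcripts tested, 293 (0.906%) were called, with 172 higher and 121 lower. Of the members, 7 (1.75%) were called, all 7 higher, against 0.532% of all transcripts called as higher. With all 15 libraries, 0B included, 181 transcripts were called, 2 of them members. The members' count also depended on single libraries among the 14. It was 22 without 100E and 11 without 10C, 2 without 0D or 5E, and 1 without 10A, 50A or 50B. It was 0 without 0E, 5A, 5B, 10B, 50D, 100A or 100C, each left out singly. Calls over all transcripts moved as well, between 55 and 783 with 1 library left out. They were 418 of 32157 without 10C, 119 of 32164 without 0D and 186 of 32108 without 5E. Without 10A they were 158 of 32301, and without 5A 60 of 32173.

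The 7 called members had 122 to 273 bases, mean levels between 255 and 3134 TPM, and fitted changes between 0.25 and 1.86 on the log2 scale. Their adjusted p lay between 0.0397 and 0.0498, close to the threshold. Counts were whole for 2 of the 7. In the control left out, 0B, the TPM of 3 of the 7 lay above all 14 libraries, and that of 3 lay below both other controls. The strongest members that were lower missed the threshold, with a smallest adjusted p of 0.0530 (edgeR). Some other settings did call members as lower. With DESeq2 these were 17 of 65, against 1742 of 3484 calls over all transcripts. With limma on log2(CPM + 0.5) they were 2 of 10, against 266 of 530 over all. A linear trend in edgeR called 3 of 19 as lower, against 299 of 673 over all. Limma on log2(TPM + 1) called 18 of 35 as lower, against 784 of 1164 over all.

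ENSDART00000159470.2, of 177 bases and an effective length of 6.0, was one of the 2 with the smallest adjusted p. Its levels were 1949 and 1700 TPM in the controls and 1846, 2205 and 1655 TPM at 5 μg/l. They were 3973, 3886 and 2895 TPM at 10 μg/l, 3955, 4578 and 3772 TPM at 50 μg/l, and 4412, 3902 and 3154 TPM at 100 μg/l. All 9 libraries from 10 μg/l upwards lay above all 5 below. The fitted change over the gradient was 1.46 on the log2 scale (adjusted p = 0.0397, edgeR).

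At 100 μg/l this transcript averaged 80.9 ± 16.3 CPM (SD, n = 3), against 35.7 ± 5.58 CPM in the controls (SD, n = 2). The difference of 1.18 ± 0.23 on the log2 scale (SE) did not pass the test for that dose alone (adjusted p = 0.121, edgeR). The control left out, 0B, had 12546 TPM, above every exposed library. With all 15 libraries the direction turned and the call was lost (adjusted p = 0.636, edgeR). Its counts carried fractions, so reads may be shared with similar transcripts.

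ENSDART00000053794.4, of 273 bases and an effective length of 30.0, had whole counts and the other smallest adjusted p (0.0397, edgeR). It had 426 and 424 TPM in the controls and 361, 397 and 396 TPM at 5 μg/l. It had 373, 364 and 412 TPM at 10 μg/l, 361, 424 and 373 TPM at 50 μg/l, and 458, 456 and 506 TPM at 100 μg/l. In TPM only the libraries at 100 μg/l lay above both controls, and those at 5 and 10 μg/l lay below them. In scaled counts it averaged 49.7 ± 0.71 CPM at 100 μg/l (SD, n = 3), against 41.5 ± 2.63 CPM in the controls (SD, n = 2). On that scale 50B (45.7 CPM) also lay above both controls (43.3 CPM in 0D and 39.6 CPM in 0E). The fitted change over the gradient was 0.25 on the log2 scale. The call was kept with all 15 libraries (adjusted p = 0.0424) and was lost with 0D (0.0642) or 0E (0.0743) left out in place of 0B and with a linear trend (0.184), all with edgeR. It was also lost on log2(TPM + 1) (adjusted p = 0.0569, limma).

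At an unadjusted p under 0.05 in the trend there were 122 members (30.5%), the 7 called ones included, against 24.3% of all transcripts. Of these members 86 were higher and 36 lower, beside 4180 higher and 3678 lower over all transcripts. The members' split depended on the controls used. It was 45 higher and 37 lower with all 15 libraries, 49 and 38 with 0D left out in place of 0B, and 34 and 45 with 0E left out in place of 0B. Over all transcripts the split in the same order was 2523 higher and 2735 lower, 2267 and 2289, and 2101 and 2271. The median fitted change of the members was 0.12 on the log2 scale, beside 0.01 over all transcripts, with 253 members above 0 and 147 below. With all 15 libraries the members' median was 0.03, with 216 above 0. It was 0.02, with 210 above 0, when 0D was left out in place of 0B, and -0.01, with 196 above 0, when 0E was. With limma on log2(TPM + 1), the median was -0.05 for members and -0.05 for all, and 176 of the 400 were above 0. With limma on log2(CPM + 0.5) the members' median was 0.10. The direction of the members' median thus depended on the scale and on the controls. Changes beyond 1 on the log2 scale were fitted for 19 members, 5 higher and 14 lower.

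Set against the controls dose by dose, no member was called with edgeR at any dose. In the order of dose, calls over all transcripts numbered 1, 13, 16 and 23, or 0.00309%, 0.0402%, 0.0495% and 0.0711%. The smallest adjusted p of a member was 1.0, 0.366, 0.117 and 0.121 in the same order. With an unadjusted p under 0.05 there were 3, 61, 100 and 74 members, or 0.75%, 15.2%, 25.0% and 18.5%, against 2.23%, 12.8%, 16.3% and 11.2% of all transcripts. DESeq2 called 0, 11, 23 and 25 members, or 0%, 2.75%, 5.75% and 6.25%, against 0.445%, 2.01%, 4.43% and 3.58% of all transcripts. With limma on log2(CPM + 0.5) the members called were 0 at each dose, against 0.0155%, 0.0773%, 0.117% and 0.185% of all. With limma on log2(TPM + 1) they were 0, 0, 3 and 5, or 0%, 0%, 0.75% and 1.25%, against 0.0124%, 0.121%, 0.445% and 0.556% of all. The members' median difference from the controls was 0.03, 0.03, 0.12 and 0.10 on the log2 scale in the order of dose. Its direction turned with the controls used. It was -0.07, -0.10, 0.01 and 0.01 with all 15 libraries, -0.09, -0.11, -0.04 and -0.01 with 0D left out in place of 0B, and -0.10, -0.15, -0.06 and -0.03 with 0E left out in place of 0B.

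Effective length shifted between libraries for some members, and its part in the differences between TPM and counts was not tested. For 295 members the effective length as deposited was exactly equal, with no tolerance, in all 14 libraries, and TPM followed counts up to a factor shared by a library. For the other 105, all of at least 216 bases, it varied between libraries. Of these, 67 had a longer mean effective length at 100 than at 0 μg/l and 34 a shorter one, and the ratio ran between 0.35 and 1.60. In 25 the ratio was over 1.2, and in 8 it was below the inverse of 1.2.

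The 2 extremes, picked after their values were seen, show the size of this shift. ENSDART00000089992.6, of 288 bases, had effective lengths of 66.8, 73.2 and 72.3 bases at 100 μg/l, against 41.5 and 46.8 in the controls. Its counts, not scaled for depth, were 1374, 1474 and 1740 at 100 μg/l, against 1709 and 1675 in the controls. Scaled for depth they were 80.5, 64.1 and 62.1 CPM at 100 μg/l, against 65.8 and 60.7 CPM in the controls. Its TPM were 336, 242 and 258 at 100 μg/l, against 468 and 417 in the controls. The groups did not overlap in TPM and overlapped in counts, scaled or not.

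ENSDART00000180097.1, of 255 bases, went the other way. It had effective lengths of 40.8, 35.4 and 30.4 bases at 100 μg/l, against 112.6 and 90.6 in the controls. Its counts, not scaled for depth, were 197, 685 and 270 at 100 μg/l, against 403 and 298 in the controls, and thus overlapped. Scaled for depth they overlapped too, with 11.5, 29.8 and 9.63 CPM at 100 μg/l, against 15.5 and 10.8 CPM in the controls. Its TPM were 78.9, 233 and 95.1 at 100 μg/l, against 40.6 and 38.3 in the controls, and did not overlap. By dose its mean TPM was 39.5, 36.3, 133, 169 and 136 from 0 to 100 μg/l. It thus reached a mean of 100 TPM only through the doses from 10 μg/l upwards. This gap in TPM is therefore partly built in by the choice of members.

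The fitted change on log2(TPM + 1) with limma was set against that on counts with edgeR. These are unlike fits, so their differences are not of scale alone. For the 295 members with constant effective length, the first minus the second had a median of -0.13, between -0.445 and -0.063. For the 105 it had a median of -0.216, between -0.93 and 1.42. With limma on log2(TPM + 1), 35 members (8.75%) had a dose trend, 17 higher and 18 lower, against 3.60% of all transcripts. Of these, 17 were among the 105 (16.2% of them) and 18 among the 295 (6.10%). The test on TPM called 6 of the 7 members called by counts. With limma on log2(CPM + 0.5), 10 members (2.5%) were called, against 530 of 32350 transcripts. The 7 and the 35 came from different tests, edgeR and limma, whereas the 10 and the 35 both came from limma. Between the 10 and the 35, the factor of each library, the pseudocount and effective length differed. For the 18 among the 295, effective length did not vary between libraries. With a pseudocount of 0.1 on TPM the number was also 35, 17 higher and 18 lower. The part of each in the difference was not tested. Effective length as an offset in edgeR was an alternative added after the data had been seen. It called 25 members (6.25%), 19 higher and 6 lower, against 3.38% of all transcripts, and all 7 were among them.

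**Figure D5:**
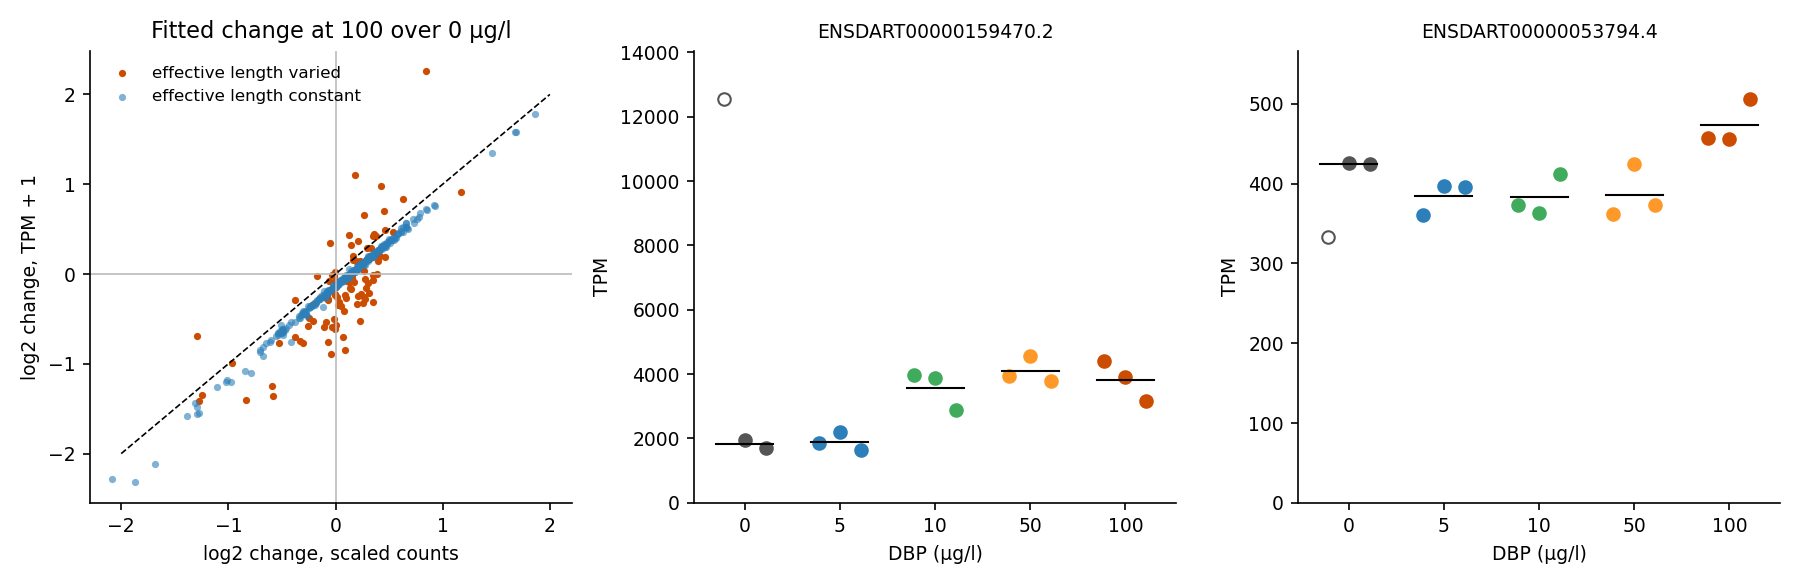
Left, fitted log2 change at 100 over 0 μg/l in TPM + 1 (limma) against that in scaled counts (edgeR), 1 point per member. Colour shows whether effective length varied, and the dashed line is equality. Middle and right, TPM of the 2 named members with a dose trend in each library, with the open point for control 0B at 12546 TPM in the first. Black lines are dose means.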

How the data were processed

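RNA of 15 pools was sequenced after poly-A enrichment. The authors trimmed reads with Trimmomatic and quantified them with Salmon 1.5.1 on the zebrafish transcriptome. They deposited estimated counts per transcript, not scaled, and TPM with lengths and effective lengths per library. In the file of 0B numbers carry decimal commas and were read as decimals. Total counts were 17.2 to 28.0 M in the 14 libraries. The 2 controls and, at low counts, counting error limit the precision. A count of 0 leaves room for up to 3 counts.

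Counts were rounded, filtered (10 or more counts, at median depth, in 2 libraries and 15 in total), scaled by TMM and tested with edgeR 4.0.16 (R 4.3.3) with Benjamini-Hochberg adjustment. DESeq2 1.42.0 and limma 3.58.1 served as alternatives, with pseudocounts of 0.5 on CPM and 1 or 0.1 on TPM. The tests were tried on simulated counts. Replicates of a dose differed by more than counting noise. That libraries of a dose are separate pools is what the labels say, so p-values measure the spread between these pools.

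Members and lists were chosen with earlier results of these data known. Named were the 10 most abundant members, up to 2 called in each direction, the 3 most and 3 least variable, those at the threshold, the longest and the shortest. No marker or pathway list was read, and no sequence is printed, because no member's identifier was matched to a name in the sources used here.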

Additional observations from a re-analysis of the deposited data

Results flagged for a closer look

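In the control left out, 0B, 3 members lay over 3 times above the highest of the 14 other libraries. ENSDART00000191102.1, of 255 bases, had 1590 TPM in 0B, against 73.9 and 138 TPM in the controls 0D and 0E. ENSDART00000182119.1, of 168 bases, had 11980 TPM in 0B, against 1633 and 1418 TPM in the other controls. The third, of 168 bases and one of the 7 with a dose trend, had 2924 TPM in 0B, against 209 and 129 TPM in the other controls. The cause was not tested.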

How the results depend on the processing

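The share of TPM followed the length used and the limits of the rule. It was 38.0% with a maximum of 250 bases and 59.1% with 400, 46.1% from 50 TPM and 42.8% from 200 TPM, and 42.5% without the most abundant member. It was 1.81% of counts and 7.77% on coding length. Without each library in turn it lay between 44.6% and 44.9%.

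The number of transcripts with a dose trend, 293 with 7 members, was 180 with 2 members without the count filter, 181 with 2 over all 15 libraries, 54 with 0 when 0D was left out in place of 0B, and 89 with 0 when 0E was. It was 3484 of 32350 with DESeq2, with 65 members (16.2% of the members, 48 higher, 17 lower). It was 530 with 10 members (8 higher, 2 lower) with limma on CPM, 1164 with 35 on TPM + 1 and 1108 with 35 on TPM + 0.1. It was 673 with 19 for a linear trend, 28 with 0 for dose as a factor, 1095 with 25 for effective length as an offset, and 27 with 0 at an adjusted p under 0.01. On TPM + 0.1 the median fitted change of all transcripts moved to -0.11. With each library left out the number lay between 55 and 783, with 0 to 22 members.

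Against the controls, the counts at 5, 10, 50 and 100 μg/l in that order were 0, 4, 7 and 24 over all 15 libraries, 5, 7, 12 and 17 with 0D left out in place of 0B, and 10, 11, 14 and 29 with 0E. They were 144, 650, 1434 and 1158 with DESeq2, with 0, 11, 23 and 25 members, and 5, 25, 38 and 60 with limma on CPM. They were 4, 39, 144 and 180 on TPM + 1 and 4, 33, 123 and 143 on TPM + 0.1, both with 0, 0, 3 and 5 members. With effective length as an offset they were 1, 13, 61 and 115, with 1 member at 100 μg/l. With each library left out they lay between 1 and 24 at 5, 5 and 73 at 10, 13 and 41 at 50, and 15 and 45 at 100 μg/l, with at most 1 member, at 10 μg/l.

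Letters were not taken to pair the libraries. Of 14 same-letter pairs, 7 correlated over 0.1 in their deviations from dose means, all 3 pairs of letter E among them, with a range of -0.08 to 0.26, and 3 of 14 libraries correlated best with their own letter. With the replicate block 11 transcripts and 0 members had a trend, and 0 transcripts differed from the controls at each dose.

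ENSDART00000159470.2 turned direction over all 15 libraries (adjusted p = 0.636, edgeR), with 0D left out in place of 0B (0.549) and with 0E (0.555). Its adjusted p with each library left out lay between 0.0179 and 0.102, and that of ENSDART00000053794.4 between 0.0336 and 0.118. On TPM + 1 with limma, 6 named transcripts not called by counts were called. ENSDART00000089992.6 turned to lower (adjusted p = 0.0278, and 0.0280 on TPM + 0.1) and ENSDART00000137673.2 was lower (0.0394). ENSDART00000180007.1 (0.00622), ENSDART00000060444.6 (0.0225), ENSDART00000103273.4 (0.0413) and ENSDART00000180097.1 (0.0430) were higher. In the controls ENSDART00000103273.4 and ENSDART00000180097.1 averaged 90.0 and 39.5 TPM, and they reached 100 TPM only through higher doses. Their rise in TPM is therefore partly built in by the choice of members. Of 729 values for 27 named transcripts, 668 kept their side of the threshold, and 28 lost and 28 gained the call. The 5 turns given here reversed direction where a call was made. Turns of direction without any call also occurred and are not among these 5. For ENSDART00000102482.6 the fitted log2 change was 0.28 on counts (edgeR) and -0.16 on TPM + 1 (limma). The causes were not tested.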

Other observations

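Control 0B differed from the other libraries in many of the short transcripts. In TPM, 153 of the 400 members lay outside the range of the 14 libraries, 43 above and 110 below. Each of the 14, set against the other 13, had between 30 members (50A) and 117 members (10B) outside. In 0B, 24 members were over 3 times below the lowest of the 14, and 22 of these carried fractional counts. At 0 counts in 0B were 10 members, all with fractional counts elsewhere and with means between 40.8 and 4958 counts over the 14 libraries. ENSDART00000181899.1, of 264 bases, had 0 counts in 0B, against 4191 to 5770 counts in the 14. The effective length was larger in 0B than in any of the 14 for 315 members, with a median ratio of 1.1 to the mean over the 14. Whether library or processing sets these values was not tested.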
